A study of Mus musculus with 4 samples.

Results

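The Hedgehog response genes Ptch1, Smo, Gli1, Gli2, Gli3 and Hhip were followed in single cells of the mouse gonad and mesonephros at the time of sex determination. They are 6 of the 21495 genes counted in the series, were chosen by name, by no measured threshold but with earlier results of these data known, and all 6 had counts. Their levels were compared across 13 cell types and 4 samples that differed in how many Sertoli cells they held, since Sertoli cells are the source of the ligand Desert hedgehog (Dhh) in the fetal testis.

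Hedgehog ligands are secreted proteins that act on neighbouring cells. Without ligand, the receptor Patched 1 (Ptch1) keeps the membrane protein Smoothened (Smo) silent, and the transcription factor Gli3 is largely processed into a repressor. Bound ligand releases Smo, and the Gli factors then activate target genes. Gli1, Ptch1 and the ligand-binding decoy Hhip are themselves targets, so that their transcripts are widely used as readouts of the pathway, and in the fetal testis Dhh from Sertoli cells acts on interstitial cells that give rise to Leydig cells.

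The XY KO embryos carried a homozygous CRISPR deletion of the miR-17~92 cluster, made in XY G4 mouse embryonic stem cells and turned into embryos by tetraploid complementation. The XY control embryos came from the unedited G4 line in the same way, whereas the XX control embryos were bred from C57BL/6J males and 129 females. The labels give the strain as C57BL/6 x 129S4/SvJae for all samples and name no treatment. XY control, XY KO and XX control were collected at embryonic stage E11.5, and a second XY KO sample at E11.75, called E11.5 KO and E11.75 KO below. Each of the 4 groups was 1 pool of 3 to 4 pairs of gonads with the attached mesonephros, sequenced as 2 technical runs except for XY KO E11.75, which had 1 run. With 1 sample per group no test between groups could be made, and every ratio below compares these samples. Genotype and stage cannot be told apart for the E11.75 KO against the XY control, and neither can sex chromosomes, breeding and depth for the XX control.

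The samples held 23527 (XY control), 17057 (the E11.5 KO), 8492 (the E11.75 KO) and 3669 (XX control) cells, with 105192238, 90233642, 37841392 and 67952558 unique molecular identifiers (UMIs, each standing for 1 captured transcript). The median was 3893 to 4763 UMIs per cell in the XY samples and 15509 in the XX control. The labels, the cell names and the deposited annotation gave the same stage for every cell, although the order of cell numbers in the study's methods exchanges the KO stages. Pairs of runs shared 1 to 40 cell barcodes, at most 0.687% of the smaller run. Mir17hg, the host transcript of the deleted cluster, was at 19.8 CPM (UMIs of a gene scaled to a fixed total) in the XY control, 156 in the E11.5 KO, 161 in the E11.75 KO and 18.2 in the XX control. Its counts were thus higher in both KO samples, and since 3′ reads can lie outside the deleted part, they do not check the deletion. The deposited names matched their markers to different degrees. All 6 endothelial, 6 immune, 7 germ cell and 7 neural crest markers peaked in their own type, as did 7 of 8 Sertoli, 7 of 9 mesonephric mesenchyme and 5 of 9 interstitial progenitor markers, but only 2 of 7 did so in pre-supporting cells and 1 of 7, Lhx9, in the coelomic epithelium.

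The deleted cluster encodes 6 microRNAs whose seeds, bases 2 to 8, fall into 4 families. Their mature sequences (RefSeq, GRCm38.p6, chromosome 14, plus strand) are shown because 2 of the 6 response genes held letters that match a seed in the 3′ untranslated region (3′ UTR) of their transcripts. The seed is in capitals.
mmu-miR-17-5p: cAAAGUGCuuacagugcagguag
mmu-miR-20a-5p: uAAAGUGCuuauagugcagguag
mmu-miR-18a-5p: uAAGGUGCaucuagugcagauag
mmu-miR-19a-3p: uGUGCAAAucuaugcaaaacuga
mmu-miR-19b-3p: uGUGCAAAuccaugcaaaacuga
mmu-miR-92a-3p: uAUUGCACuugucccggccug

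In the GENCODE M21 annotation of mm10, Ptch1 (chr13:63508328-63573598), Gli1 (chr10:127329882-127341974), Gli2 (chr1:118834132-119053619) and Gli3 (chr13:15463235-15730026) had no match to any of the 4 seeds in their 3′ UTRs of 3205, 165, 1653 and 3245 bases. Smo (chr6:29735503-29761365) had 1 match to the miR-18 seed and Hhip (chr8:79965851-80058006) had 3 matches, 2 to miR-19 and 1 to miR-92. A match is only a run of letters, and 12.3% of 17305 genes had a match of 8 bases and 43.3% had any match. The 3′ UTR windows of Smo and Hhip follow in the direction of the transcript, with the match in capitals.
Smo, miR-18, chr6:29760913-29760920, plus strand: tcctggttaGCACCTTAaaactgcag
Hhip, miR-19, chr8:79970593-79970600, minus strand: ttgcataatTTTGCACAatttagatt
Hhip, miR-19, chr8:79966496-79966502, minus strand: cttcttgagTTTGCACtaatctggc
Hhip, miR-92, chr8:79971915-79971921, minus strand: aatgttcttGTGCAATgtagtggaa

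Dhh was concentrated in the Sertoli cells of the XY control and the E11.75 KO, and the samples differed widely in the number of Sertoli cells. Sertoli cells, deposited as supporting cells, made up 10.4% of the 7254 gonadal cells of the XY control (exact 95% interval 9.67 to 11.1). They were 0.503% in the E11.5 KO (0.323 to 0.748), 5.52% in the E11.75 KO (4.74 to 6.39) and 0.204% in the XX control (0.0247 to 0.733), which is 752, 24, 168 and 2 cells. Gonadal cells here are the pre-supporting, Sertoli, coelomic epithelium, interstitial progenitor, germ and supporting-like cells, without endothelial cells. Dhh over all gonadal cells was 13.9 CPM in the XY control, 0.547 in the E11.5 KO, 3.13 in the E11.75 KO and 0.606 in the XX control. These values rest on 518, 14, 47 and 12 UMIs, and all intervals here and below are 95% intervals that cover counting error only. In the XY control 481 of the 518 Dhh UMIs lay in Sertoli cells, and in the E11.75 KO 44 of 47 did. In the E11.5 KO 2 of 14 did, and in the XX control 0 of 12. Endothelial cells, not counted as gonadal here, held 46 Dhh UMIs in the XY control and 38 in the E11.5 KO. In the E11.75 KO and the XX control they held 9 and 12.

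The level per Sertoli cell also differed. Dhh was 116 CPM (106 to 127) in Sertoli cells of the XY control and 42.9 CPM (31.1 to 57.5) in those of the E11.75 KO. The 8 Sertoli markers, Dhh among them, summed to 1768 and 1246 CPM in the same cells, while interstitial markers summed to 378 and 629, mesonephric mesenchyme markers to 560 and 838 and tubule markers to 150 and 399 CPM, and their part in the Dhh level was not tested. Dhh is also a short gene (chr15:98891152-98898540). Short genes read lower in interstitial progenitors of the E11.75 KO, as given below, and the part of this in the Dhh level was not tested. The 24 Sertoli cells of the E11.5 KO held 2 Dhh UMIs, which is 13.2 CPM (1.6 to 47.7), and the 2 cells of the XX control held none. Endothelial cells, which line blood vessels, had Dhh in every sample, at 8.39, 11.84, 8.05 and 4.85 CPM in the order XY control, the E11.5 KO, the E11.75 KO and XX control, which is the order of all series of 4 values below. The other ligands came from the neighbouring tissue. Sonic hedgehog (Shh) in mesonephric tubules was 6.51, 5.83, 13.6 and 4.88 CPM in the same order, and Indian hedgehog (Ihh) there rested on 13, 13, 16 and 3 UMIs. Of the 3 finer clusters of the tubules, Mesonephric tubules 2 had 0 UMIs of Shh and of Ihh in all samples, with upper limits of 1.28 to 3.25 CPM. Adrenal cells held Shh at 13.2, 24.2 and 3.27 CPM in the XY control, the E11.5 KO and XX control, and only 8 adrenal cells were present in the E11.75 KO.

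Across cell types, the targets Ptch1 and Gli1 had their highest mean levels in the mesenchyme and epithelium of the mesonephros, with ranges over samples that overlapped that of interstitial progenitors. The values below are CPM, means of the sample levels with the lowest and highest sample, from a 3′ assay that counts transcripts once whatever their length. Ptch1 was highest in the epithelial mesonephros (110.1, 68.3 to 196.5) and the mesonephric mesenchyme (102.5, 58.1 to 182), followed by Sertoli cells (92.4, 84.5 to 100.3 in the 2 samples with enough of them). Gli1 led in the mesonephric mesenchyme (29.7, 21.2 to 45.7) and the epithelial mesonephros (28.8, 19.1 to 41.4), ahead of adrenal cells (18.2) and interstitial progenitors (15.6, 9.25 to 23.8). Neighbouring types in these orders overlapped in range, so the order of 2 adjacent types is not resolved.

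The remaining members were spread differently. Gli2 was alike in interstitial progenitors (28.8), mesonephric mesenchyme (27.7), epithelial mesonephros (26.1) and coelomic epithelium (22.5), with overlapping ranges. Gli3 was highest in the mesonephric mesenchyme (100.8, 69.7 to 149) and the interstitial progenitors (66.2, 48.6 to 97.8). Smo was broad, from 206 CPM in the epithelial mesonephros and 173.7 in the coelomic epithelium to 46.7 in immune cells, with germ cells apart at 9.13. Hhip was narrow, at 22.8 CPM in the epithelial mesonephros (10.8 to 49.6), 10.4 in adrenosympathetic cells and 8.09 in the mesonephric mesenchyme, and 0 to 5 UMIs per sample in interstitial progenitors.

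**Figure D1:**
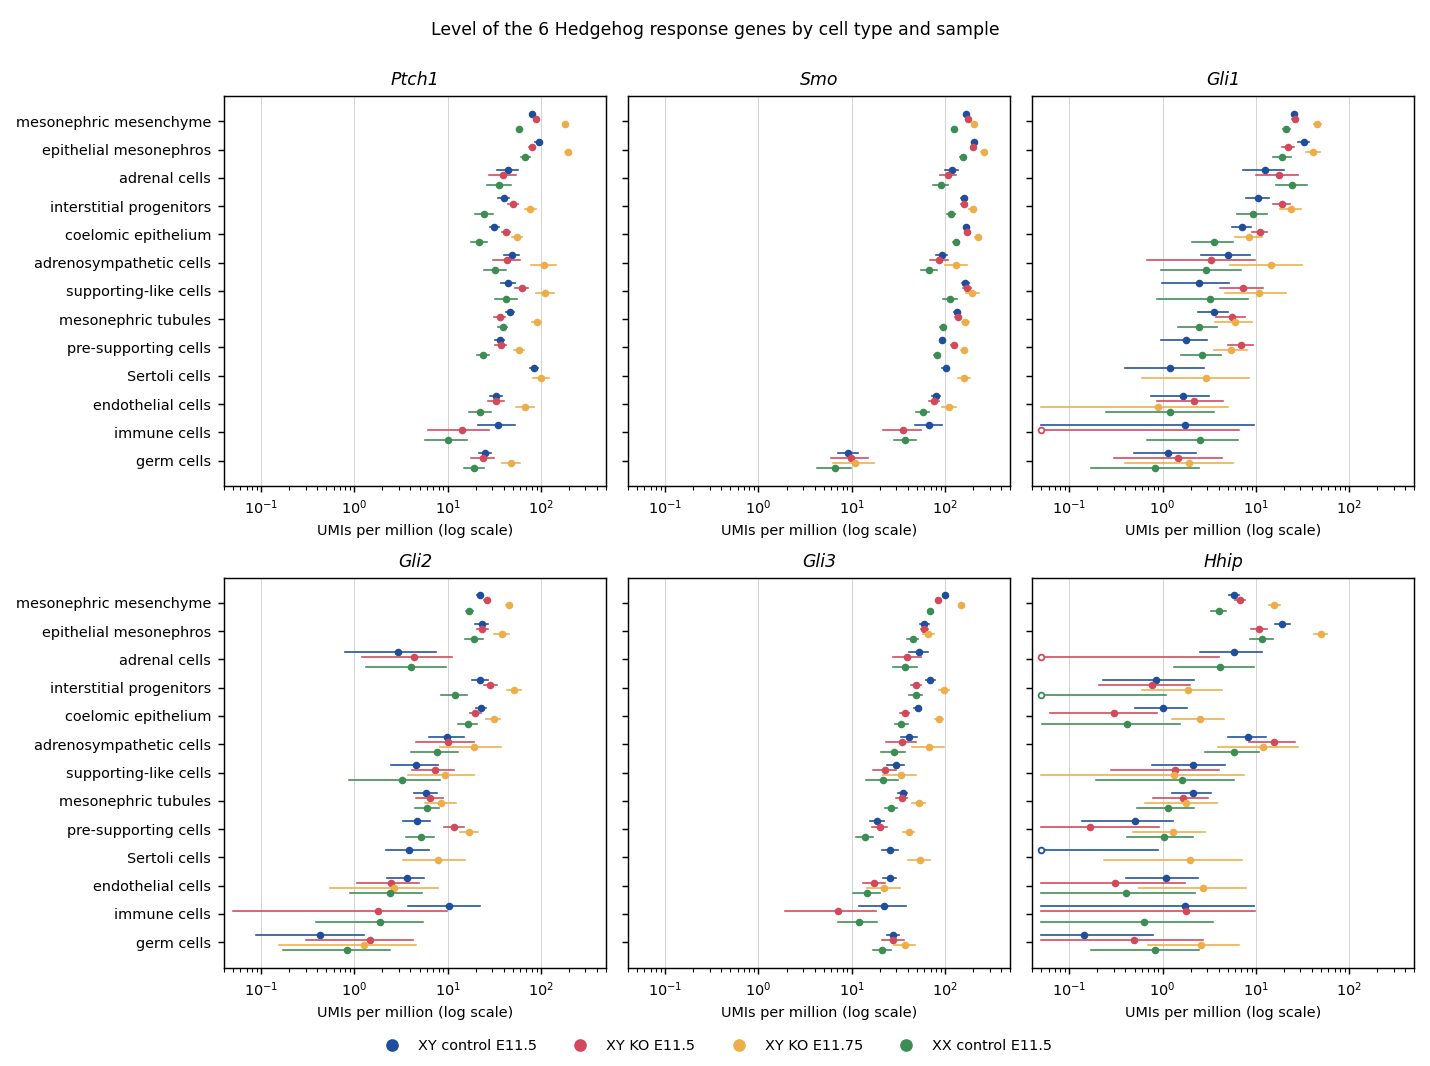
Level of each response gene (x axis, CPM, log scale) in each of the 13 cell types (y axis), with 1 point per sample and lines for the exact 95% Poisson interval of the count. Open points at the left edge are counts of 0, lines that reach the left edge go on below it, and samples with under 50 cells of a type are left out. The mesonephric mesenchyme and the epithelial mesonephros sit to the right for Ptch1, Gli1 and Hhip, and germ cells far to the left for Smo.

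The same contrasts were read within each sample, with a difference counted where it was at least 1.5-fold in 1 direction in every sample. The cell types were defined on the expression of these same cells, so these are descriptions. Gli1, Gli2 and Gli3 were higher in interstitial progenitors than in pre-supporting cells, the precursors of the supporting lineage, in all 4 samples (2.70- to 5.78-fold, 2.31- to 4.72-fold and 2.40- to 3.73-fold), against 8.98% of the genes tested. Ptch1 and Smo were not separated between these 2 types in that way. The mesonephric mesenchyme exceeded pre-supporting cells for every member except Smo, with Gli1 3.70- to 14.0-fold higher, against 17.3% of genes. In XX cells with 3000 to 30000 UMIs only, the log2 ratio of Gli1 over pre-supporting cells went from 1.78 to 2.90 in interstitial progenitors and from 2.96 to 4.15 in the mesenchyme. Interstitial progenitors were below the mesonephric mesenchyme for Ptch1 (0.424- to 0.567-fold) and Hhip, against 5.64% of genes.

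Sertoli cells had much Ptch1 and little Gli1. Ptch1 was 84.5 CPM in Sertoli cells of the XY control and 100.3 in those of the E11.75 KO, against 36.2 and 58.2 in pre-supporting cells of the same samples, which is 2.34- and 1.73-fold higher (5.84% of genes were higher in both samples). Gli1 in the same Sertoli cells was 1.204 and 2.92 CPM, on 5 and 3 UMIs. The cells with the most ligand transcript were thus among those with the most receptor transcript, with Gli1 near the limit of counting.

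Interstitial progenitors, the receivers of Dhh in the fetal testis, had more Gli1 in both KO samples than in the XY control. Gli1 was 10.5 CPM in the XY control (7.82 to 13.9, 50 UMIs), 18.9 in the E11.5 KO (15.3 to 23.0, 98 UMIs), 23.8 in the E11.75 KO (18.3 to 30.4, 64 UMIs) and 9.25 in the XX control (6.28 to 13.1, 31 UMIs). The 2 KO samples lay above both controls, and the technical runs kept that order, at 11 and 9.99 CPM in the XY control, 15.2 and 22.4 in the E11.5 KO, and 9.62 and 8.88 in the XX control. Of the samples with few Sertoli cells, the E11.5 KO (24 cells) had more Gli1 than the XY control. The XX control (2 cells) had a level that overlapped the XY control. The E11.75 KO, with 168 Sertoli cells, had the highest value, with an interval that overlapped the E11.5 KO. A link between Sertoli cell number and Gli1 was not tested.

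Ratios were taken on the log2 scale and centred on the median of all genes tested in that type, which were those with at least 50 UMIs over both samples. A log2 ratio past 0.58 is 1.5-fold, and 3.9% of genes in interstitial progenitors were at least that much higher and 4.68% lower in the E11.5 KO than in the XY control. The Gli1 ratio was 0.97 (0.47 to 1.5) for the E11.5 KO, 1.03 (0.48 to 1.60) for the E11.75 KO and −0.06 (−0.76 to 0.61) for the XX control, all against the same XY control sample. At E11.75, 9.28% of genes were past 1.5-fold higher and 13% lower, and in the XX control 3.65% and 5.42%. Between the 2 KO samples the Gli1 ratio was 0.05 (−0.43 to 0.51), which does not resolve a difference. In bulk sums such as these, more cells with Gli1 and more transcripts per cell cannot be told apart. The share of cells was also counted, but with so few Gli1 UMIs per cell it largely follows the sum and cannot separate them.

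The share of interstitial progenitors with a Gli1 UMI, after each cell was thinned to 3000 UMIs, was 2.58% in the XY control (1.64 to 3.85), 5.85% in the E11.5 KO (4.51 to 7.46), 6.30% in the E11.75 KO (4.32 to 8.83) and 2.22% in the XX control (0.725 to 5.11). Without thinning the shares were 3.45, 7.89, 7.81 and 11.9%, and the XX cells were deeper (median 13830 UMIs against 3483, 4209 and 3484). Thinning left out 414, 149, 225 and 2 shallower cells. In immune cells, which should lack the gene, 0 of 51, 0 of 64, 1 of 31 and 1 of 67 thinned cells had a Gli1 UMI, from median depths of 1488, 7040, 5769.5 and 18870.5 UMIs. Immune markers summed to 924 CPM in this type in the XY control and to 3862 to 4384 in the other samples. The shares of these few immune cells have upper limits of 5.601 to 16.7%, so background was not measured to below the shares in interstitial progenitors.

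Ptch1 in interstitial progenitors was 39.8 CPM in the XY control, 50.1 in the E11.5 KO, 77.3 in the E11.75 KO and 24.5 in the XX control. The highest level was again in the E11.75 KO and the lowest in the XX control. The centred ratios were 0.46 (0.19 to 0.74), 0.82 (0.53 to 1.11) and −0.57 (−0.97 to −0.20), so that Ptch1 was past 1.5-fold only at E11.75. Gli2, the main activator, was 22.3, 28.7, 52.1 and 11.9 CPM, with ratios of 0.49 (0.13 to 0.87), 1.08 (0.71 to 1.46) and −0.77 (−1.34 to −0.24). Gli3, the main repressor, was 69.7, 48.8, 97.8 and 48.6 CPM, and at E11.5 it was the only one of the 5 members read in these cells to lie below the XY control in the KO, at −0.38 (−0.63 to −0.14). Smo differed least, at 158, 161, 198 and 116 CPM. Of the 5 members with enough UMIs, Gli1 alone was past 1.5-fold in the E11.5 KO, and none was lower by that much.

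**Figure D2:**
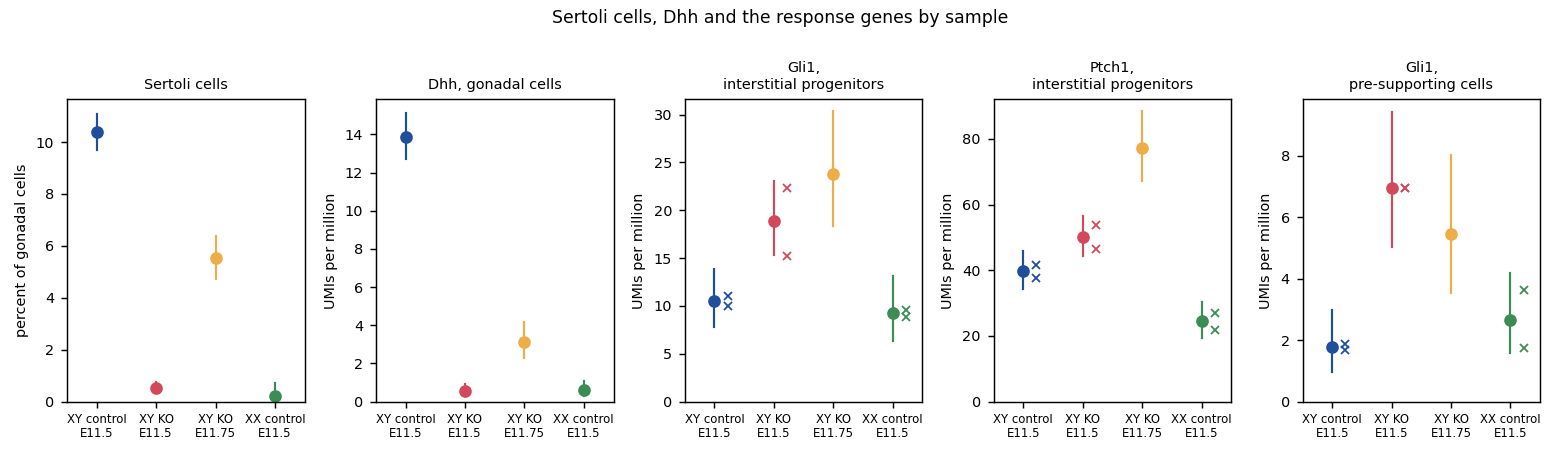
The left panels show the percent of gonadal cells that were Sertoli cells (exact binomial interval) and the Dhh level of all gonadal cells, and the other panels show Gli1 and Ptch1 in interstitial progenitors and Gli1 in pre-supporting cells (CPM, exact Poisson interval), by sample. Crosses are the technical runs of a sample. Gonadal cells leave out endothelial cells. Sertoli cells and Dhh are lower in the E11.5 KO than in the XY control (0.503 against 10.4%, and 0.547 against 13.9). Gli1 in interstitial progenitors is 18.9 in the E11.5 KO and 10.5 in the XY control.

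Marker lists of 12 cell types were summed in the same cells. The 9 interstitial progenitor markers summed to 2547, 2662, 3990 and 2480 CPM in interstitial progenitors of the 4 samples, and 1 of 9 was past 1.5-fold higher in the E11.5 KO. The 9 mesonephric mesenchyme markers summed to 2199, 2004, 3486 and 1951 CPM there, with 1 higher and 1 lower in the E11.5 KO. The 7 coelomic epithelium markers summed to 349, 467, 439 and 264 CPM, and 2 of the 5 read were higher in the E11.5 KO. The 7 germ cell markers summed to 94.8, 36.3, 49.5 and 69.8 CPM, with 2 of 3 lower, and the 8 Sertoli markers to 32.0, 15.6, 26.0 and 13.7 CPM, with the 1 that could be read lower. In each of the 7 other lists, 0 or 1 gene was past 1.5-fold in either direction, and no marker was at 0 in all samples. Among these, the immune list had 0 genes with enough UMIs to be read, and it summed to 20.4, 5.59, 1.49 and 10.7 CPM. At E11.75 both mesenchymal sums stood well above those of the XY control, beside Ptch1, Gli1 and Gli2 past 1.5-fold and Smo (0.19) and Gli3 (0.35) short of it. The part of these lists in the ratios was not tested.

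Pre-supporting cells, deposited as bipotential progenitors, had low Gli1 and Gli2 that were higher in the KO samples. Gli1 was 1.78 CPM in the XY control (14 UMIs), 6.97 in the E11.5 KO (42 UMIs), 5.45 in the E11.75 KO (25 UMIs) and 2.65 in the XX control (18 UMIs). The runs were 1.88 and 1.68 CPM in the XY control, and both runs of the E11.5 KO were at 6.97. The centred ratio in the E11.5 KO was 2.03 (1.16 to 3.05), where 5.26% of genes were past 1.5-fold higher and 6.89% lower. The 2 other comparisons with the XY control had fewer than 50 Gli1 UMIs and were not tested. The thinned share of cells with a Gli1 UMI was 0.409, 1.94, 1.56 and 0.573%, all below the upper limits in immune cells.

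Gli2 in pre-supporting cells was 4.69, 11.78, 17 and 5.16 CPM, on 37, 71, 78 and 35 UMIs. Both KO samples lay above both controls, with ratios of 1.41 (0.83 to 2.04) at E11.5 and 1.65 (1.08 to 2.27) at E11.75, where 10.5% of genes were higher and 14.7% lower. Smo was 93.9, 123, 158 and 82.1 CPM, with ratios of 0.49 (0.34 to 0.64) and 0.56 (0.41 to 0.71). Gli3 was 18.6 and 19.9 CPM in the E11.5 XY samples and 40.8 at E11.75, and Ptch1 was 36.2, 37.2, 58.2 and 24.0 CPM. The readouts of the pathway did not move together in these cells, since the Ptch1 ratio in the E11.5 KO was 0.13 (−0.13 to 0.39) beside 2.03 for Gli1.

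Other genes differed in pre-supporting cells as well. The interstitial marker list summed to 470, 621, 640 and 528 CPM, with 5 of its 9 genes past 1.5-fold higher in the E11.5 KO, and the Sertoli list summed to 267.5, 62.5, 125 and 38.3 CPM, with 3 of 5 lower. The coelomic epithelium list, of a type with more Gli1 and Gli2, summed to 353, 475, 517 and 375 CPM, with 2 of 5 higher, and 2 of 4 tubule markers were higher (330 against 375 CPM in the E11.5 XY samples). Lower were 3 of 5 adrenal cortex markers (381 against 250 CPM) and 2 of 3 germ cell markers (64.2 against 25.7 CPM). Their part in the Gli1 and Gli2 values was not tested. With Sertoli and pre-supporting cells merged, the Gli1 ratio was 2.19, while Ptch1, which is high in Sertoli cells, went from 0.13 to −0.38.

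In the coelomic epithelium, the outer layer of the gonad, Gli1 was 7.05, 11.02, 8.45 and 3.57 CPM in the order XY control, the E11.5 KO, the E11.75 KO and XX control. The highest level was in the E11.5 KO, with a ratio of 0.75 (0.31 to 1.19), and the XX ratio was −0.82 (−1.71 to −0.08) on 17 UMIs, with −0.23 and −1.43 from its separate runs. In the E11.5 KO, 3.76% of genes were higher and 3.93% lower, and in the XX control 3.25% and 7.52%. Of the marker lists in these cells, 2 of the 6 coelomic epithelium markers read and 2 of 9 mesonephric mesenchyme markers were higher in the E11.5 KO (sums of 1069 against 1066 and 1111 against 1189 CPM in the XY control and the KO), and 2 of 4 germ cell markers were lower (63.5 against 29.5 CPM). Their part in the Gli1 ratio was not tested. The E11.75 ratio was 0.13 (−0.49 to 0.70), so that no Gli1 difference was resolved in the sample with the highest Ptch1. In that comparison, genes with the shortest 3′ UTRs had a median ratio of −0.32 in these cells and those with the longest 0.22. The 3′ UTR has 165 bases in Gli1 and 3205 in Ptch1. The E11.75 ratios given here are not adjusted for length, and its part in the gap between Gli1 and Ptch1 was not tested. Ptch1 was 31.6, 41.9, 56.0 and 21.9 CPM, with ratios of 0.51, 0.68 and −0.40. Gli3 again went in opposite directions in the KO samples, at −0.37 (−0.56 to −0.18) at E11.5 and 0.62 (0.43 to 0.81) at E11.75, where 7.78% of genes were higher and 12.1% lower. At E11.75 mesonephric mesenchyme markers summed to 1582 CPM in these cells against 1111 in the XY control. Interstitial markers summed to 2116 against 1737 and tubule markers to 443 against 290. The Sertoli, germ cell and immune sums were lower, and the part of these lists in the E11.75 ratios was not tested.

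**Figure D3:**
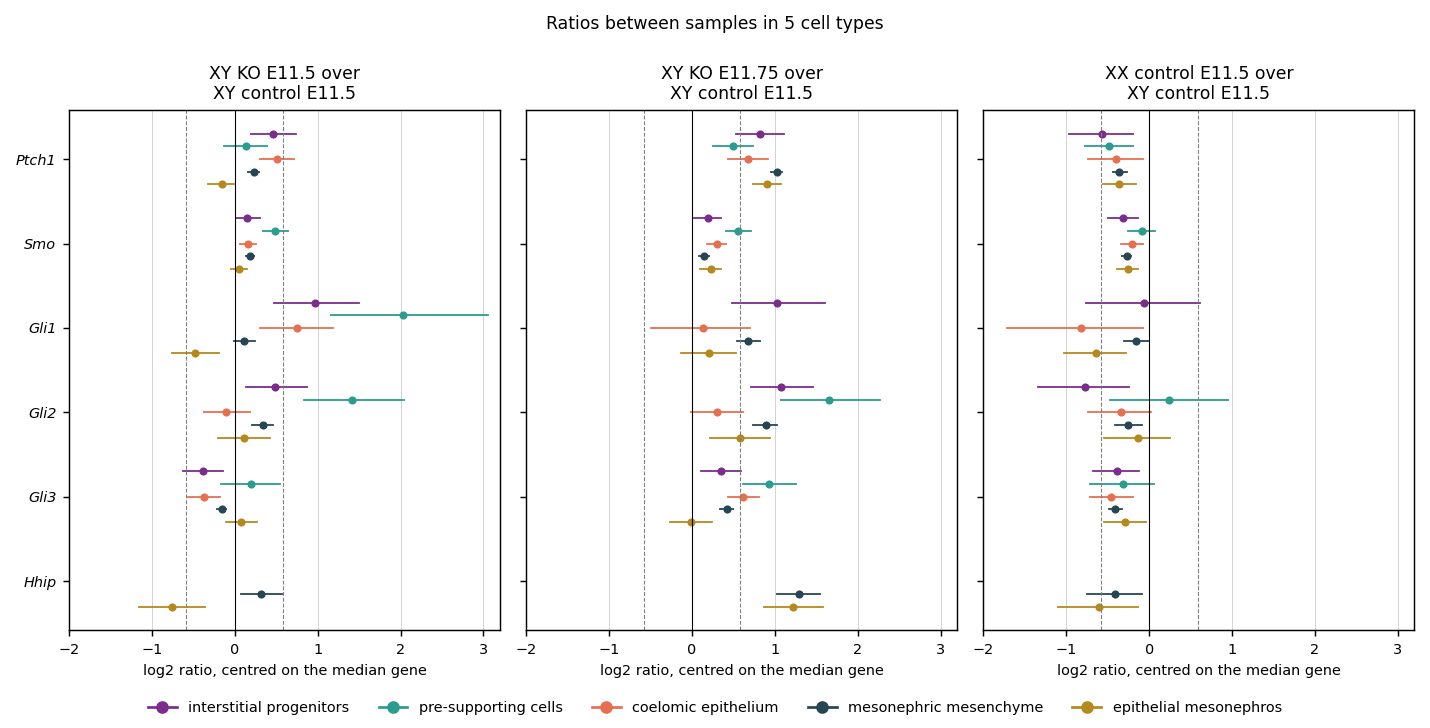
Centred log2 ratios (x axis) of the 6 genes in 5 cell types for the E11.5 KO, the E11.75 KO and XX control, each over the same XY control sample. Lines are exact 95% intervals of counting error, dashed lines mark 1.5-fold, and genes with under 50 UMIs over both samples are not drawn. Gli1 in the E11.5 KO spans 2.03 in pre-supporting cells to −0.48 in the epithelial mesonephros, most ratios at E11.75 are right of 0, and most XX ratios are left of 0.

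The mesonephric mesenchyme, the largest type with 11121, 8863, 3865 and 1714 cells, gave the most precise values. Ptch1 was 81.1 CPM in the XY control, 88.6 in the E11.5 KO, 182 in the E11.75 KO and 58.1 in the XX control. Gli1 was 25.8, 26.1, 45.7 and 21.2 CPM, and Hhip was 5.82, 6.78, 15.7 and 4.01 CPM. The E11.5 KO was close to the XY control for all 3 targets, with ratios of 0.23 (0.16 to 0.29), 0.11 (−0.01 to 0.24) and 0.32 (0.07 to 0.57), while 3.57% of genes were past 1.5-fold higher and 4.53% lower. The E11.75 KO was past 1.5-fold for all 3, at 1.02 (0.95 to 1.09), 0.68 (0.54 to 0.82) and 1.29 (1.02 to 1.55), as was Gli2 at 0.89, where 8.59% of genes were higher and 13.7% lower. The 9 markers of the type itself summed to 3042, 3295, 4760 and 2421 CPM in these cells and the 9 interstitial markers to 2062, 2171, 3361 and 1911 CPM, so both sums were also highest at E11.75, and their part in the ratios was not tested. In the E11.5 KO the Gli1 ratio was thus 0.97 in interstitial progenitors and 0.11 in the mesenchyme summed over its cells, with intervals that did not overlap, although in 1 of the finer clusters of the mesenchyme described next, Mesonephros 3, it was 0.51 (0.26 to 0.78), which overlaps that of interstitial progenitors. A test of that difference over samples could not be made.

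The mesenchyme was not uniform. Of its 4 finer clusters, Mesonephros 1 had the highest Ptch1 in every sample (102, 112, 259 and 68.2 CPM) and the highest Gli1 (32.2, 30.6, 58.8 and 27.1 CPM), and Mesonephros 4 the lowest Gli1 (8.58, 9.46, 19.9 and 11.02 CPM). Hhip in Mesonephros 1 was 9.85, 7.999, 25.4 and 6.32 CPM. In Mesonephros 3 the KO at E11.5 was above the XY control for the 3 targets, with Ptch1 at 0.57 (0.42 to 0.72), Gli1 at 0.51 and Hhip at 1.60 (0.93 to 2.37), from 22 to 82 Hhip UMIs. In Mesonephros 1 the same ratios were 0.21, 0.02 and −0.21, and in Mesonephros 2 they were 0.21, 0.06 and 0.46 (0.05 to 0.87). In Mesonephros 4 Ptch1 was at 0.15 and Gli1 at 0.22, both with intervals across 0, and Hhip had 0 UMIs in the XY control and 10 in the KO. Mesonephros 1 was 38.9, 27.1, 49.2 and 32.0% of the type in the 4 samples, so the summed level of the type also moves with its makeup. With the 4 clusters weighted equally, Ptch1 at E11.75 was 0.86 in place of 1.02.

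**Figure D4:**
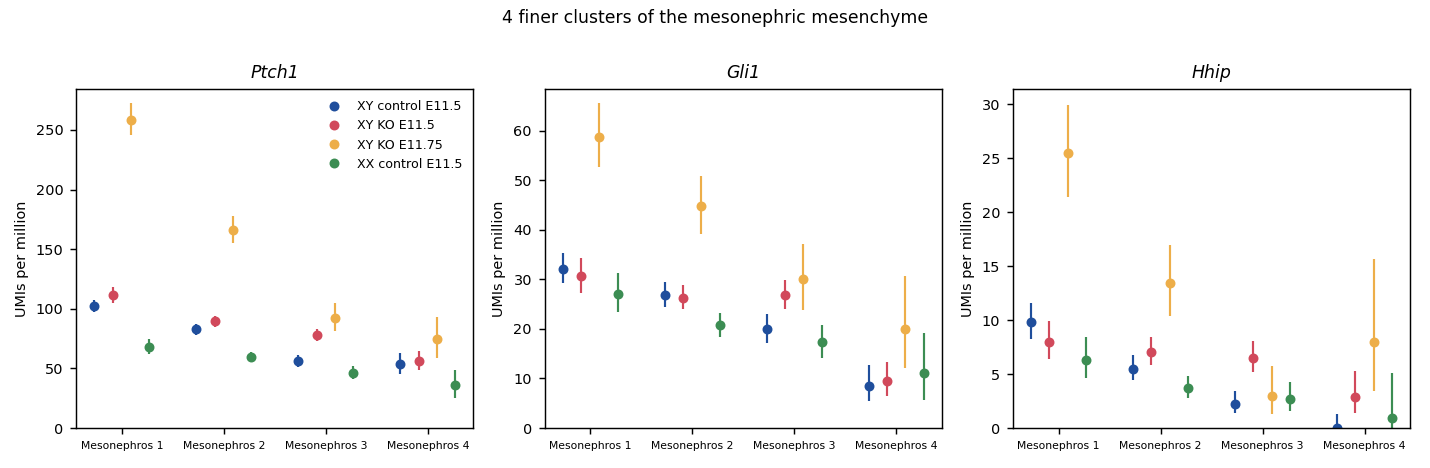
Ptch1, Gli1 and Hhip (y axis, CPM from 0, exact 95% Poisson intervals) in the 4 finer clusters of the mesonephric mesenchyme, with 1 point per sample. All 3 genes are highest in Mesonephros 1 at E11.75, at 259, 58.8 and 25.4, and Hhip in Mesonephros 3 is higher in the E11.5 KO than in the XY control.

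In the epithelial mesonephros the KO at E11.5 was below the XY control for the 3 targets, past 1.5-fold for Hhip alone. Gli1 was 32.5, 22.2, 41.4 and 19.1 CPM, and Hhip was 19.2, 10.8, 49.6 and 11.6 CPM. Both were lower in the E11.5 KO and XX control than in the XY control and highest in the E11.75 KO. The E11.5 KO ratios were −0.48 (−0.76 to −0.19) for Gli1, −0.76 (−1.15 to −0.36) for Hhip and −0.16 (−0.32 to −0.01) for Ptch1, where 2.83% of genes were past 1.5-fold higher and 4.08% lower. The technical runs of the E11.5 KO gave Gli1 ratios of −0.80 and −0.23, so the size of that difference was not stable between runs. In these cells the 9 mesonephric mesenchyme markers summed to 1369 CPM in the XY control and 1799 in the E11.5 KO, with 3 of 9 past 1.5-fold higher, and 2 of the 8 interstitial markers read were higher. Of the endothelial markers 2 of 3 were lower (59.4 against 34.0 CPM in sum), as were 2 of 3 germ cell markers (80.6 against 24.6 CPM), and the part of these lists in the ratios was not tested. At E11.75, Hhip was at 1.22 (0.87 to 1.58) and Ptch1, at 95.03, 80.4, 196.5 and 68.3 CPM, was at 0.90 (0.74 to 1.07), against 9.66% of genes higher and 13.6% lower. In that sample neural crest markers summed to 258 CPM against 143 in the XY control. Mesonephric mesenchyme markers summed to 1977 against 1369 and interstitial markers to 2718 against 1751. Only the germ cell, immune and adrenal cortex sums were lower, and the part of these lists in the E11.75 ratios was not tested. The Gli1 ratio at E11.75 was 0.20 (−0.13 to 0.53). Genes with the shortest 3′ UTRs had a median ratio of −0.38 in that comparison and those with the longest 0.25. The E11.75 ratios of this type are not adjusted for length.

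Over all types with at least 50 cells in both samples, 48 ratios of the 6 genes could be read for the E11.5 KO. Of these, 5 were past 1.5-fold higher and 2 lower, while 4.21% of the ratios of all genes in those types were higher and 5.49% lower, and 4 of the 5 were Gli1, in pre-supporting cells, interstitial progenitors, coelomic epithelium and mesonephric tubules. The tubule value was 0.72 (−0.02 to 1.47), and of its finer clusters Mesonephric tubules 2 was at 2.56 (1.24 to 4.42) on 5 and 23 UMIs. Mesonephric tubules 3 was at −0.63 (−1.95 to 0.55) and Mesonephric tubules 1 had 10 UMIs in 539 cells of the XY control and 0 in 44 cells of the KO, so no direction was resolved in either. The fifth was Gli2 in pre-supporting cells. The lower ratios were Hhip in the epithelial mesonephros and Smo in immune cells, at −0.91 (−1.78 to −0.11) on 39 and 20 UMIs. The immune type of the XY control was low in immune markers, whose 6 genes summed to 924 CPM there against 3862 in the E11.5 KO, with 6 of 6 higher in the KO. Its mesonephric mesenchyme markers summed to 721 CPM against 174 and its pre-supporting markers to 464 against 197, with 3 of the 3 and 3 of the 4 that were read lower in the KO, and their part in the Smo ratio was not tested. No ratio of Ptch1 among 11 types was past 1.5-fold, with a range of −0.28 to 0.57.

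For the E11.75 KO, 20 of 46 ratios were past 1.5-fold higher and 0 lower, beside 9.69 and 13.5% of all genes, and Ptch1 accounted for 9 of them in 11 types. This sample had a shift that went with the span of genes. In interstitial progenitors, the 10% of genes with the shortest span on the genome had a median ratio of −0.43 and the 10% with the longest span 0.27. The same classes stood at 0.09 and −0.05 in the E11.5 KO, and at 0.17 and −0.07 in the XX control. Gli1 is short (12.1 kb, longer than 27.2% of genes), Smo is in the middle (25.9 kb), and Ptch1 (65.3 kb), Hhip (92.2 kb), Gli2 (219.5 kb) and Gli3 (266.8 kb) are long.

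Centred on genes of the same class of span, an alternative chosen after seeing the data, the E11.75 ratios in interstitial progenitors were 1.19 for Gli1, 0.69 for Ptch1, 0.81 for Gli2 and 0.08 for Gli3. In the mesonephric mesenchyme they were 0.83 for Gli1, 0.87 for Ptch1, 0.64 for Gli2, 0.17 for Gli3 and 1.10 for Hhip. Gli1 was thus further from the XY control within its span class and Ptch1, Gli2 and Hhip were nearer, and 17 of the 20 ratios were still past 1.5-fold. Gli3 in interstitial progenitors went from 0.35 to 0.08.

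**Figure D5:**
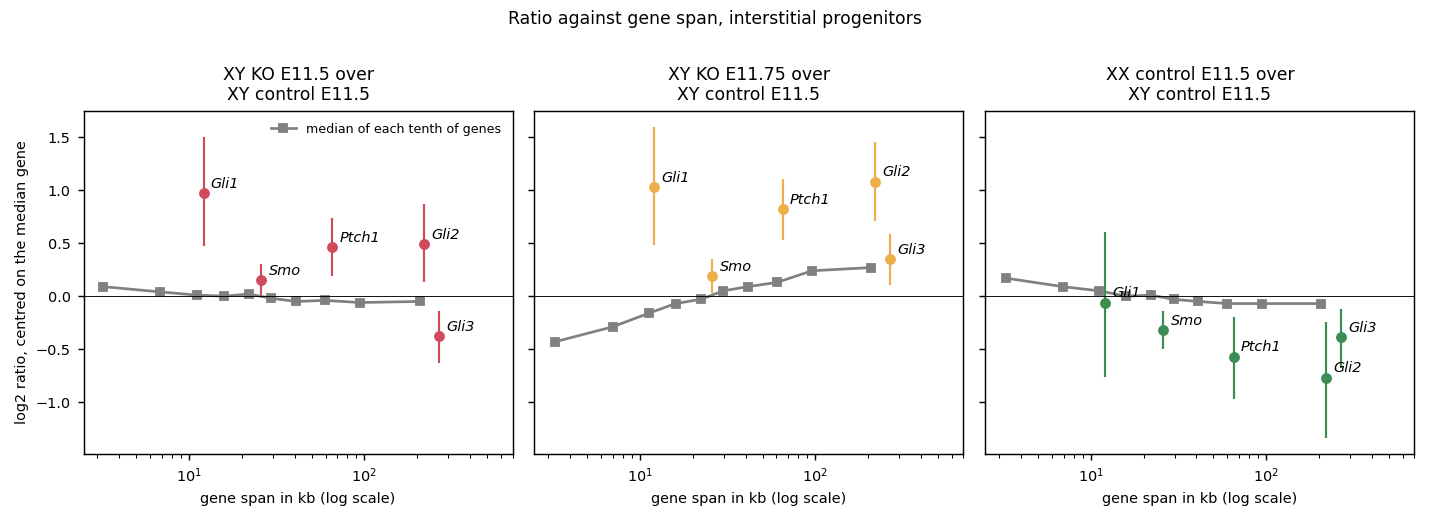
Centred log2 ratio (y axis) against the span of the gene in kb (x axis, log scale) in interstitial progenitors for the 3 comparisons with the XY control. Grey squares are medians of 10 classes of genes by span, and coloured points are the response genes with exact 95% intervals. The grey medians go from −0.43 to 0.27 at E11.75 and from 0.09 to −0.05 in the E11.5 KO, and Gli1 at E11.75, at 1.03, lies above the medians of genes of its span.

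In the XX control, 0 of 47 ratios were past 1.5-fold higher and 6 lower, and the median of the 47 was −0.32. Over all genes in those types 4.63 and 7.16% were higher and lower, with 4 and 5.99% in the mesonephric mesenchyme, 2.66 and 5.65% in the epithelial mesonephros and 4.25 and 6.42% in pre-supporting cells. The 6 were Gli1 in the coelomic epithelium and the epithelial mesonephros, Gli2 in interstitial progenitors, Gli3 in endothelial cells, Hhip in the epithelial mesonephros and Smo in immune cells. In the immune type, immune markers summed to 924 CPM in the XY control against 4384 in the XX control. Mesonephric mesenchyme markers there summed to 721 against 268 CPM, and the part of these lists in the Smo ratio was not tested. In interstitial progenitors of the XX sample, with 2 Sertoli cells, Gli2 was thus the member past 1.5-fold, on the lower side, and in the E11.5 KO, with 24, it was Gli1, on the higher side. Short of that fold, Ptch1, Smo (−0.32) and Gli3 (−0.39) were also below the XY control in the XX sample, and in the E11.5 KO Ptch1, Gli2 and Smo (0.15) were above it and Gli3 below. The XX cells were several times deeper and were filtered differently by the authors. The part of the filtering was not tested, and that of depth was looked at only in the window of depth given next. In cells with 3000 to 30000 UMIs only, 3 of the 6 were still past 1.5-fold, and with XX control run 1 or run 2 alone 5 and 2 were. With either run of the XY control alone, 4 were.

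Germ cells had the lowest Smo of all types, at 9.17, 9.78, 10.9 and 6.65 CPM, and its range was apart from that of the next type. Their Ptch1 was 25.2, 24.0, 48.1 and 19.4 CPM and Gli3 27.7, 27.9, 37.2 and 21.3 CPM. Germ cells had 0.364, 0.408, 0.227 and 0.343 Smo UMIs per Ptch1 UMI against 2.37, 2.39, 1.54 and 2.53 in the other cells, so that counts of Smo were few beside those of the receptor Ptch1. The part of free RNA in these counts was not tested.

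The wider pathway was read from 6 lists with 87 genes besides the members. In interstitial progenitors of the E11.5 KO, 71 of the 87 could be read, 2 were past 1.5-fold higher, 5 lower, and their median was −0.05, beside 0 for all genes by the centring. At E11.75, 12 of 69 were higher and 4 lower with a median of 0.18, beside 9.28% and 13% of all genes. In the XX control 2 of 69 were higher and 8 lower with a median of −0.10, beside 3.65% and 5.42% of all genes. The 20 genes of cilium transport, which carry the pathway's signal in the primary cilium, had 0 past 1.5-fold in either direction in the E11.5 KO. Of the 16 readable genes known as Hedgehog targets in mesenchyme of other organs, 1 was higher and 3 lower. In all genes of these cells, 3.9% were higher and 4.68% lower in the E11.5 KO. In the mesonephric mesenchyme of the E11.5 KO, 4 of 80 listed genes were higher and 5 lower, beside 3.57% and 4.53% of all genes. Of the 20 target genes there, 4 were higher and 0 lower. In pre-supporting cells of the E11.5 KO, 8 of 72 listed genes were higher and 4 lower, beside 5.26% and 6.89% of all genes. At E11.75, 19 of 72 were higher and 4 lower in these cells, beside 10.5% and 14.7%.

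Among receptors, the co-receptor Gas1 was 384, 428, 445 and 371 CPM and the glypican Gpc3, which binds ligand, was 939, 1201, 833 and 818 CPM in interstitial progenitors. In pre-supporting cells the E11.5 KO ratios were 0.74 for Boc, 0.78 for Gas1 and 0.81 for Gpc3, each past 1.5-fold higher, whereas the co-receptor Cdon was at −0.31 (−0.53 to −0.09). At E11.75 Boc was at 0.91, Gas1 at 0.00, Gpc3 at −0.23 and Cdon at 0.31, so Boc alone of these 4 was past 1.5-fold in both KO samples. Boc, like Gas1 a co-receptor that helps ligand bind, and Cdon, another co-receptor, are named after their values were seen. Scube3, known for releasing ligand from cells, was 18.8, 40.0, 48.4 and 12.8 CPM in pre-supporting cells, with ratios of 1.18 and 1.17 in the KO samples.

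Some listed genes were past 1.5-fold in the same direction in both KO samples, which share the XY control they are set against. The share of all genes that did so in both samples was not counted, so the listed genes are not shown to stand out. In interstitial progenitors the listed genes were Gli1 and, on the lower side, the forkhead factor Foxc2, at 22.5, 11.76, 16.4 and 22.7 CPM (ratios −0.80 and −0.59). In the mesonephric mesenchyme the forkhead factor Foxl1, a Hedgehog target in the gut, was higher (1.56 and 1.01, from 57 UMIs in the XY control to 160 and 43). Cyp11a1, Star and Hsd3b1, which serve steroid synthesis, were lower there, at −2.14, −0.95 and −0.66 in the E11.5 KO. In the E11.75 KO they were at −4.09, −0.60 and −2.49. The 7 adrenal cortex markers, which include these 3 genes and so are no separate measure of them, summed to 34.1, 18.7, 21.6 and 27.5 CPM in that type, and 5 of the 6 that could be read were past 1.5-fold lower in the E11.5 KO. The part of adrenal transcripts in the values of the steroid genes was not tested. In interstitial progenitors the receptor Pdgfra was 322, 385, 753 and 208 CPM and the transcription factors Nr2f2 and Tcf21 were at 538 and 539 CPM in the XY control, with Nr2f2 at −0.15 and Tcf21 at 0.31 in the E11.5 KO.

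Over 48 combinations of type and sample, the genes whose pattern was nearest to that of each member, by Pearson's r among 13155 genes, were given as a description. The combinations of 1 sample share a library and its depth. Gli1 was nearest to Sfrp1 (0.89), a secreted Wnt inhibitor, and Ror1 (0.87), Ptch1 to Zfp740 (0.88), and Smo to Nono (0.95). Gli2 was nearest to Alcam (0.93) and the collagen gene Col3a1 (0.92), Gli3 to the Wnt receptor Fzd7 (0.87), and Hhip to Gata2 (0.81).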

How the data were processed

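Droplet libraries of mouse gonad and mesonephros were aligned to mm10 by the authors with Cell Ranger 6.1.1, and the deposited values were counts of UMIs per gene and cell, with 2 technical runs merged except for the E11.75 KO. The authors filtered XY cells by mitochondrial and beta-globin percent and by maximum UMI and gene numbers, and XX cells by removal of low-quality clusters. They removed doublets with DoubletFinder, and cell names came from their Seurat annotation, deposited beside the counts with the percent of mitochondrial counts and other cell descriptors. The study's methods give 17057 cells to E11.75 and 8492 to E11.5, whereas labels, cell names and annotation gave the reverse for all 52745 cells and were used.

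Counts were summed per type and sample and scaled to a fixed total (CPM), with exact Poisson intervals. Ratios used a prior of 0.5, exact binomial intervals and centring on the median tested gene (at least 50 UMIs over both samples and 50 cells in each). Types were compared within samples for genes with at least 200 UMIs. A difference of 1.5-fold was called, and no p-value was computed. The ratio calculation was tested on simulated data. The tools were Python 3.11.15, numpy 2.4.6, scipy 1.17.1, pandas 2.3.3, matplotlib 3.10.9, R 4.3.3, and edgeR 4.0.16 for TMM factors. Median depth was 3893 to 15509 UMIs per cell, and intervals cover counting error only. Alternatives were other scalings, priors, UMI minimums, depth windows, single runs and centring by 3′ UTR length. Centring by gene span and equal weights of finer clusters were added after seeing the data.

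The 6 genes and the lists were chosen with earlier results of these data known. Named genes were the members, the ligands, the 3 of each list with the highest mean CPM in interstitial progenitors, up to 4 of each list past 1.5-fold in the same direction in both KO samples in interstitial progenitors and likewise in mesonephric mesenchyme, and for each member the 3 genes most alike by Pearson's r of log2(CPM + 1), among genes with at least 500 UMIs, of which the first or the first pair are printed. Seed matches were searched in GENCODE M21 3′ UTRs with RefSeq miRNAs. Some listed genes are not reported here. There were 0 other columns of per-sample values.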

Additional observations from a re-analysis of the deposited data

Results flagged for a closer look

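In 4 cases a response gene lay above the compared sample in one cell type and below it in another. The intervals were on opposite sides of 0, and both ratios passed a minimum size. The difference between the types was not tested in any of them, since each group was 1 sample. Gli1 in the E11.5 KO over the XY control was 2.03 in pre-supporting cells and −0.48 in the epithelial mesonephros. Gli1 in the E11.75 KO over the E11.5 KO was 0.67 in the epithelial mesonephros and −0.64 in the coelomic epithelium. In that comparison the 10% of genes with the shortest 3′ UTR had a median of −0.42 in both types. The 3′ UTR of Gli1 is short (165 bases), and its 2 ratios are not adjusted for length. Of the 16 ratios of response genes past 1.5-fold in that comparison, 10 were still past it with centring by 3′ UTR length. Hhip in the E11.5 KO over the XY control was 0.32 in the mesonephric mesenchyme and −0.76 in the epithelial mesonephros. Smo in the same comparison was 0.49 in pre-supporting cells and −0.91 in immune cells, a type whose immune markers summed to 924 CPM in the XY control and 3862 in the E11.5 KO, while its mesonephric mesenchyme markers summed to 721 and 174 CPM. Ptch1 in the E11.5 KO over the XY control had intervals above 0 in 4 types and below 0 in 2, with ratios from −0.28 to 0.57. It was not flagged, since its lower ratios did not reach the minimum size. All ratios are centred and on the log2 scale.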

How the results depend on the processing

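No paired analysis was possible because each group was 1 sample. Of 184 ratios of the response genes, 184 stayed within their counting interval with TMM factors, 175 in cells with 3000 to 30000 UMIs, 170 with centring by 3′ UTR length and 168 with centring by gene span. Of the 49 past 1.5-fold, 48, 45, 38 and 37 were still past it, and none of the alternatives changed the sign of one of them. In the mesonephric mesenchyme, Ptch1 in the E11.5 KO was 0.14 and 0.30 in its single runs. Ptch1 at E11.75 there was 0.84 by UTR length, 0.87 by span, 0.94 in the depth window and 0.86 with finer clusters weighted equally, and Gli1 was 1.08 by UTR length and 0.83 by span. In the XX control the UTR centring gave −0.25 for Ptch1 and −0.31 for Gli1.

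With Gm42418 and the globin, ribosomal protein and mitochondrial genes left out of the total, Gli1 was 25.9 CPM in interstitial progenitors of the E11.5 KO and 32.7, 33.8, 57.2 and 27.2 CPM in the mesonephric mesenchyme. Gli1 in interstitial progenitors was 15.2 CPM in run 1 of the E11.5 KO, and the mean over cells in the mesenchyme at E11.75 was 50.6 CPM. The share of interstitial progenitors with a Gli1 UMI was 7.89% in the E11.5 KO and 11.9% in the XX control without thinning, and 4.33% and 4.26% in the KO samples thinned to 2000 UMIs. The log2 ratio of Gli1 over pre-supporting cells in the XX control was 2.90 in interstitial progenitors and 4.15 in the mesenchyme in the depth window.

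The counts of all genes past the fold in interstitial progenitors moved with the minimum. In the E11.5 KO, 412 were higher and 494 lower, against 691 and 819 at 20 UMIs, 135 and 157 at 200 UMIs, and 70 and 106 at 2-fold. At E11.75, 952 and 1331 became 494 and 791 at 200 UMIs and 201 and 254 at 2-fold. In the XX control, 373 and 553 became 670 and 909, 100 and 205, and 64 and 84. The cause of these changes was not tested beyond the number of genes each minimum leaves. Single samples per group, few UMIs of Gli1, Gli2 and Hhip in gonadal types and few Sertoli cells outside the XY control limit all comparisons.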
